A study of Mus musculus with 3 samples.

Results

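Mural cells, the pericytes and smooth muscle cells that wrap blood vessels, were examined in a pair of targeted single-cell RNA libraries of mouse femoral bone marrow (BM). They were chosen by molecule counts alone. A cell was taken when it held at least 3 molecules of Rgs5, at least 3 of Acta2 and Tagln together, none of Ptprc, and fewer than 5 of Pecam1 and Kdr together. The rule found 104 of 12884 cells in E18.5 BM cells (0.807%, exact binomial 95% interval 0.660% to 0.977%) and 81 of 7948 in Adult BM cells (1.02%, 0.810% to 1.27%), or 185 of 20832 in all. The same panel was then read against cells without Ptprc and without Rgs5 under the same limit on Pecam1 and Kdr, of which there were 1820 at E18.5 and 3779 in the adult. These are called comparison cells below.

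Both libraries came from wild-type C57/B6 mice, 1 from embryos at E18.5 (embryonic day) and 1 from adults whose age the labels do not give, with no treatment named. Marrow of several animals was pooled for each, digested to single cells and depleted of lineage-positive haematopoietic cells before a custom BD Rhapsody panel of Wnt pathway and cell type genes was amplified. Another library, of E18.5 ECs, was used only for a check. The methods and the labels describe its sort differently, and whether further depletion steps described for other adult libraries were used here is not stated. With 1 library per group there was no replicate and no test, and the stage cannot be told apart from library, preparation and depth. All intervals cover counting error only.

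In marrow, mural cells sit on arteries, arterioles and sinusoids. Pericytes and smooth muscle cells receive Notch signals from the endothelium through Notch3, and smooth muscle cells carry the contractile proteins made from Acta2 (smooth muscle α-actin) and Tagln (transgelin). Rgs5 dampens G protein signalling and is widely used as a pericyte marker. Perivascular cells of marrow are also known for making Cxcl12 and Kit ligand, which retain and maintain haematopoietic stem cells.

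Contractile genes such as Acta2 are known to be switched on through CArG boxes, the binding sequence of serum response factor. The promoter sequence of Acta2 (RefSeq, build GRCm38.p6) is shown because Acta2 is a contractile gene that chose these cells. It held 2 such boxes (CC, then 6 letters with at most 1 G or C, then GG), given in capitals with the neighbouring bases, 5′ to 3′ on the minus strand:
Acta2 box at chr19:34255448-34255457, whose first base is 84 bases before the RefSeq start: gctgaggtCCCTATATGGttgtgtta
Acta2 box at chr19:34255398-34255407, whose first base is 34 bases before the RefSeq start: tctttgctCCTTGTTTGGgaagcgag
The GENCODE annotation of that build places both inside exon 1, in the 5′ untranslated region, of a longer Acta2 transcript. At least 1 such box was present in 9.98% of 32851 promoter windows of 300 bases. TGGGAA, the core bound by the Notch effector RBPJ, was found on either strand in 25.6% of them, and in Acta2 it overlapped the second box. Neither motif lay in the windows of Rgs5, Notch3, Gja4, Nrarp or Igfbp7, which describes these windows only.

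Mural cells had a median of 333.5 molecules at E18.5 (range 22 to 1328) and of 296 in the adult (49 to 5039), and comparison cells 147 and 418. No cell had fewer than 20 molecules. Of all cells, the 2 marrow libraries shared 113 cell barcodes, 2 of them those of adult mural cells, but no barcode was mural in both. The molecules used here had been corrected by the authors' pipeline with DBEC, a step that removes low-support molecules target by target. DBEC and the RSEC correction before it together left 41.6% of raw molecules at E18.5 and 35.9% in the adult. The choice of adult cells depended on DBEC. Rgs5 was found in 13.8% of adult cells with DBEC and in 86.0% with the milder RSEC correction alone. With RSEC the rule took 598 adult cells, 41 of them among the 81. At E18.5 these shares were 1.99% and 21.0%, and 44 cells were taken, 41 of them among the 104. All results below are for cells chosen on DBEC molecules. With RSEC for cells and levels none of the 36 named targets called in the adult (at least 2-fold either way) kept its call, and the ratios of 20 of them crossed 1, among them those of Notch3, Nrarp, Fzd7, Wls, Kitl and Aspn.

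The genes of the rule chose the cells, so their levels are a description. At E18.5 a mural cell held a median of 29 Rgs5 molecules (3 to 197), 104.5 of Acta2 (0 to 775) and 27 of Tagln (0 to 404). In the adult the medians were 34 (3 to 879), 45 (0 to 577) and 24 (0 to 315). The amplicons may differ in yield, so these counts do not rank the genes. Few cells lay at the edge of the rule: 5 members at E18.5 and 2 in the adult had exactly 3 Rgs5 molecules, and 1 and 7 cells that met all other limits had 2. The limit on Pecam1 and Kdr mattered only in the adult. It removed 1 cell at E18.5 but 120 in the adult, more than were kept. Those 120 had a median of 17 Pecam1 molecules, and 95% of them had Notch3. Cells holding a mural and an endothelial cell together, and cells that express both sets of genes, were not told apart, and no doublet caller was run.

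**Figure D1:**
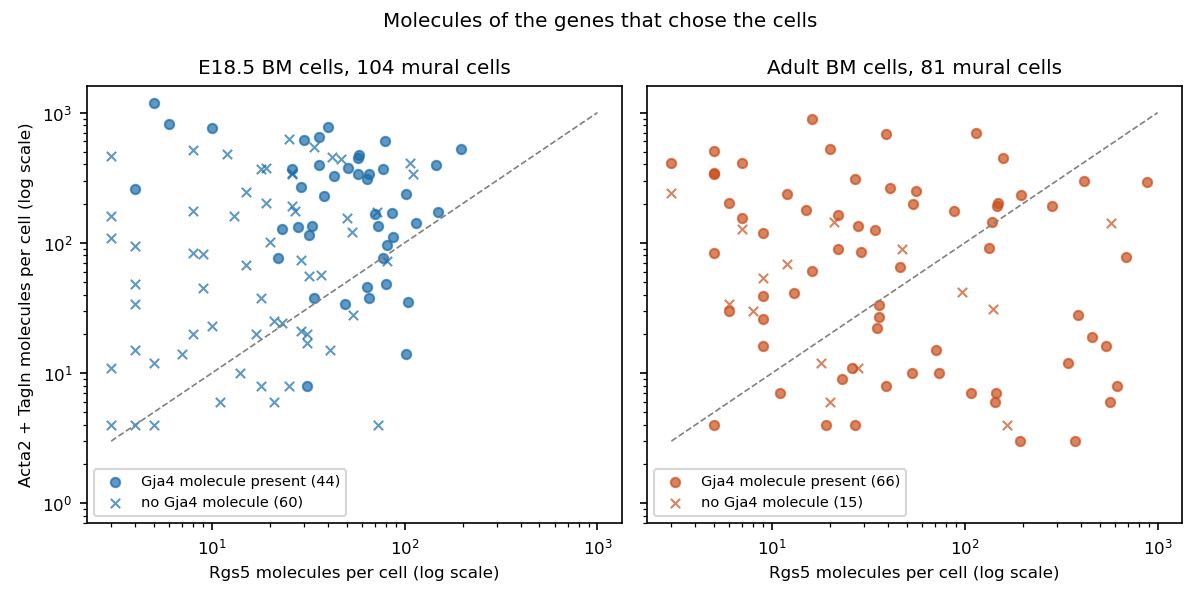
Rgs5 molecules (x axis) against Acta2 plus Tagln molecules (y axis) in each mural cell, both on log scales, for E18.5 (left) and adult (right). Filled circles have at least 1 Gja4 molecule (44 of 104 and 66 of 81 cells), crosses have none, and the dashed line marks equal amounts, which 21 and 36 cells exceed towards Rgs5.

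The mural cells differed widely in the balance of the genes that chose them, which is a description only. Rgs5 made up a median of 21.2% of the summed Rgs5, Acta2 and Tagln molecules at E18.5, from 0.422% to 94.8% over cells, and 41.4% in the adult, from 0.723% to 99.2%. It exceeded Acta2 and Tagln together in 21 of 104 and 36 of 81 cells. Over cells, the Acta2 and Tagln shares of a cell's molecules went together (Spearman's rho 0.81 over 104 cells and 0.86 over 81, cells of 1 library that differ in depth). The shares of Rgs5 and Acta2 had rho −0.26 at E18.5, where Pearson's r was −0.04, and −0.79 in the adult. Both are parts of the same total, in which the rule genes weigh much. In the adult 15281 of the members' 36132 molecules lay outside the rule genes. Part of a negative rho is therefore built in by this scaling. Cells with more Rgs5 are called Rgs5-rich below and the others contractile.

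Levels below are summed molecules per 10000 molecules of all targets outside the 6 genes of the rule, with an exact Poisson 95% interval. Ratios are of such levels. A target was called when the ratio was at least 2-fold, among targets with at least 20 molecules in both sets of cells together. At E18.5, 17 of 95 targets were called higher in mural cells (17.9%) and 35 lower (36.8%), with a median log2 ratio of −0.19 over all 95. In the adult 31 of 103 were called higher (30.1%) and 26 lower (25.2%), with a median of 0. Both splits depended on how levels were scaled. With the rule genes kept in the denominator, 5 were called higher and 62 lower at E18.5, and 19 and 43 in the adult. With every cell given equal weight the adult split was 20 higher and 38 lower. In the adult, 7 mural cells of at least 1000 molecules held 48.0% of the members' molecules outside the rule genes. A single cell held 32.9% of them, 5026 of 15281. It was rich in osteoblast genes (4595 molecules) and near the edge of the rule, with 5 molecules of Rgs5, 4 of Acta2 and Tagln and 3 of Notch3. Without this single deep cell 40 of 103 targets were called higher (38.8%) and 32 lower (31.1%). All 36 named targets called in the adult kept their call without it. Equal-weight values are given beside the main adult ratios.

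The Notch genes stood out in both libraries. Notch3, the Notch receptor of mural cells, was not used by the rule and served as the check of the cell type. It was at 1295 per 10000 in E18.5 mural cells (95% interval 1240 to 1353) against 18.6 in comparison cells, a ratio of 69.7 (64.2 to 75.8). In the adult it was at 1170 (1116 to 1226) against 24.0, a ratio of 48.7 (46.3 to 51.2) or 20.3 with equal weight. It was found in 102 of 104 and 80 of 81 mural cells, with a median of 18 molecules per cell at E18.5 (0 to 82) and 17 in the adult (0 to 87). Under the RSEC correction of both the cells and the levels the E18.5 ratio was 36.0 but the adult ratio 0.976. With RSEC levels in the cells chosen on DBEC the ratios were 48.3 and 18.47.

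Nrarp and Hey1, known targets of Notch signalling, were higher as well. Nrarp encodes a feedback inhibitor of Notch and was at 89.0 (74.8 to 105) against 2.76 at E18.5, a ratio of 32.2 (25.1 to 41.5). In the adult it was at 81.8 (68.1 to 97.5) against 0.466, a ratio of 176 (140 to 220), 21.4 with equal weight, and 0.653 with RSEC for cells and levels. Hey1, a transcriptional repressor, had smaller ratios of 5.10 (3.49 to 7.26) at E18.5 and 8.38 (5.49 to 12.3) in the adult, the latter 4.55 with equal weight. So all 3 measured Notch genes were called higher in each library, where 17.9% and 30.1% of all tested targets were. Hey1 rests on few molecules, 37 at E18.5 and 27 in the adult.

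Gja4 had the largest ratio in both libraries. It encodes connexin 37, a gap junction protein best known from arterial ECs. It was at 122 (106 to 141) in E18.5 mural cells, from 191 molecules, while comparison cells had 4 molecules in all, giving a ratio of 1328 (510 to 4925) whose size rests on those 4. In the adult it was at 230 (206 to 255) against 0.549, a ratio of 418 (356 to 493), or 71.7 with equal weight and 1.59 with RSEC for cells and levels. The list of arterial genes (Gja4, Sema3g and Hey1, with Cav1 at 0) was at 147 against 5.99 at E18.5 and at 304 against 3.08 in the adult. A Gja4 molecule was present in 44 of 104 and 66 of 81 mural cells. In the 47 adult members without Pecam1 and Kdr its level was 332.5, and in the 34 members with 1 to 4 such molecules it was 156.7, or 325 without the single deep cell. With equal weight these were 393 and 352. At E18.5, 101 of 104 members had neither. Igfbp7, a secreted binding protein of the vessel wall, was at 1094 (1043 to 1148) and 1112 (1060 to 1166), with ratios of 13.7 (12.9 to 14.6) and 9.44 (8.99 to 9.91). With equal weight the adult ratio of Igfbp7 was 4.90, and with RSEC for cells and levels 0.896.

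**Figure D2:**
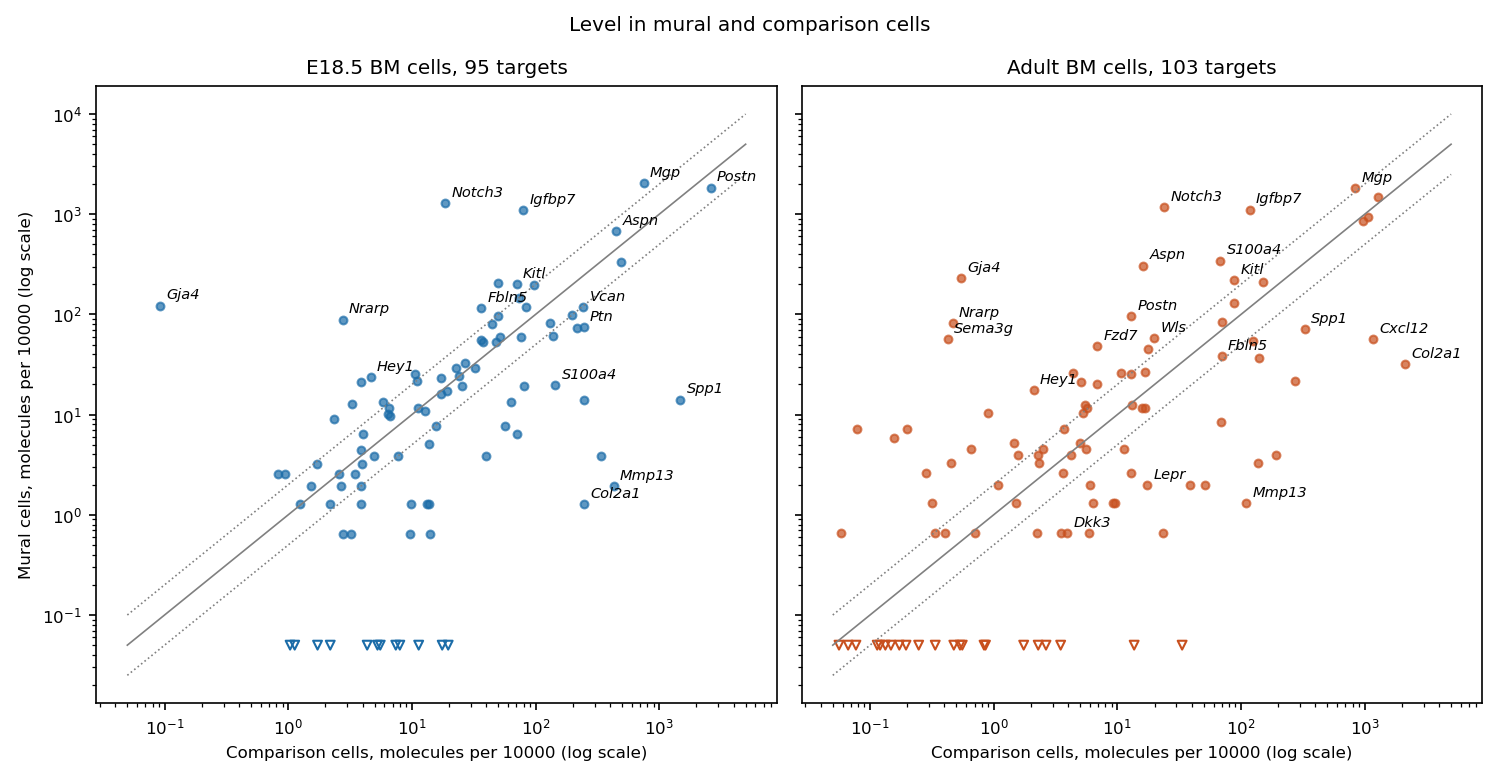
Level of each tested target in mural cells (y axis) against comparison cells (x axis), in molecules per 10000 on log scales, at E18.5 (left) and in the adult (right). The solid line is equality, dotted lines are 2-fold, and open triangles are targets with no molecule in mural cells. Gja4, Notch3, Nrarp and Igfbp7 lie far above the line in both panels, and Cxcl12 lies above it at E18.5 (80.7 against 44.2) but far below in the adult (56.9 against 1164).

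The markers of other cell types were read as lists, since free RNA or attached cells could reach the gate. At E18.5 the 7 osteoblast genes were seen in 46.2% of mural cells at a summed level of 55.7, against 2048 in comparison cells. The 3 chondrocyte genes were at 24.3 against 609, the 5 haematopoietic genes, of which Ptprc is fixed at 0 by the rule, at 17.9 against 252, and the 4 osteoclast genes at 10.9 against 75.9. The endothelial list, which includes the rule genes Pecam1 and Kdr, was at 5.76 with Kdr at 0. The fibroblast genes Aspn, Postn and Ccn3 were at 2855 against 3534, and none of the 3 was called. At E18.5, where 36.8% of all targets were called lower, 6 of 7 osteoblast, 2 of 3 chondrocyte, 2 of 4 osteoclast and 2 of 3 tested haematopoietic genes were called lower, and none of them higher.

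In the adult, osteoblast genes were at 3455 in mural cells against 4026, and found in 91.4% of mural and 99.5% of comparison cells. The mural sum came mostly from the single deep cell, which held 87.0% of its 5280 molecules. Without that cell the level was 668 and 7 of 7 osteoblast genes were called lower, where 31.1% of all targets were. With that cell 4 of 7 were called lower, where 25.2% of all targets were. With equal weight the level was 825 against 1687. The same cell held 78.3% of the members' 2282 Bglap3 molecules, and the median mural cell had 4. Bglap, Bglap2 and Bglap3 are near-identical copies, so their separate counts are uncertain. The chondrocyte genes were at 39.3 against 2457, the haematopoietic genes at 35.3 against 17.3 with Kit at 0, and the osteoclast genes at 1.31 against 4.76 with Ctsk, Atp6v0d2 and Mmp9 at 0. With equal weight the haematopoietic genes were at 80.1 against 175, the reverse order. The endothelial list was at 60.2 against 2.13, or 168 against 25.1 with equal weight, and 40 of 81 mural cells had at least 1 molecule of it. The fibroblast genes were at 416 against 46.0, or 699 against 155 with equal weight.

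Sema3g molecules lay mostly in cells with that endothelial signal. Sema3g, a semaphorin of arterial ECs, had an adult ratio of 134 (103 to 173), or 28.0 with equal weight, but 82 of its 87 molecules lay in the 34 members with 1 to 4 Pecam1 or Kdr molecules. In the 47 members without either gene its level was 7.88 against 91.8 in the others, or 22.8 against 310.3 with equal weight. Vwf, which encodes von Willebrand factor and is on the endothelial list, had 16 molecules and a ratio of 11.7 (6.63 to 19.2), 1.86 with equal weight. Of its 16 molecules 12 lay in those same 34 cells, as did 9 of the 11 molecules of Mecom, a transcription factor of stem cells and arterial ECs. Those 34 cells held 58.5% of the members' molecules outside the rule, or 38.1% without the single deep cell, which had neither Vwf nor Mecom. Stc1, a secreted glycoprotein, had the other order: 9 of its 11 molecules lay in the 47 members without Pecam1 or Kdr. At E18.5 Sema3g had 2 molecules in mural cells. The part of attached or free endothelial RNA in the adult values was not tested.

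The targets with the smallest ratios were mostly skeletal genes. Srgn and Lef1 were also among the 10 smallest at E18.5, and Cxcl12 in the adult. At E18.5 the collagenase gene Mmp13 (3 molecules, 0.00449), the cartilage collagen genes Col2a1 (2 molecules, 0.00517) and Col10a1 (6 molecules, 0.0115) and the osteopontin gene Spp1 (22 molecules, 0.00952, 0.00597 to 0.0144) were lowest. Srgn, a proteoglycan of haematopoietic cells, had 0.0574 (0.0360 to 0.0869), and Alpl, the gene of bone alkaline phosphatase, 0.0901 (0.0432 to 0.166). In the adult Mmp13 had 0.0119 from 2 molecules, and Col2a1 had 0.0151 (0.0111 to 0.0199) from 49, or 0.172 with equal weight. The chondrocyte ratios depended on a subset of comparison cells. Without comparison cells holding 10 or more Col2a1 and Acan molecules, the adult ratios were 2.50 for Col2a1, 1.05 for Col10a1 and 3.42 for Acan.

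Stromal matrix genes placed the mural cells beside, but not within, their neighbours. Aspn (asporin) and Postn (periostin) encode extracellular matrix proteins. Aspn was at 678 (638 to 720) and 307 (280 to 336) in mural cells, a ratio of 1.51 at E18.5 and of 18.9 in the adult, where it was 8.09 with equal weight and 0.551 with RSEC for cells and levels. Postn was at 1846 at E18.5, below the 2599 of comparison cells, and at 96.9 in the adult, above their 12.9. Comparison cells thus differ between the libraries, and a ratio in one does not read like a ratio in the other.

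The 3 kinds of neighbouring cells without Rgs5 and Ptprc set beside them were cells with at least 5 Pecam1 and Kdr molecules (372 at E18.5 and 1484 in the adult), cells with at least 3 of Aspn and Postn and fewer than 3 of Cxcl12 (814 and 295), and cells with at least 3 of Cxcl12 and fewer than 3 of Aspn and Postn (11 and 2458). The adult Aspn and Postn cells held 189757 molecules, 170831 of them outside the rule genes, against 215583 and 215038 at E18.5. With no Rgs5 or Ptprc and few Pecam1 and Kdr molecules, the rest in the adult must be mostly Acta2 and Tagln. That adult gate thus takes in cells with contractile genes but no Rgs5 and is not purely stromal. The Cxcl12 gates also differed between the libraries. The 7 osteoblast genes were at a summed level of 6491 in the 11 E18.5 cells and of 3351 in the adult ones. The 5 reticular genes, among them Cxcl12, were at 1416 and 3571. To remove depth, every cell was thinned to 50 molecules outside the rule genes, which left out 5 of 104 and 24 of 81 mural cells. Shares below are of thinned cells, with exact binomial 95% intervals, and unthinned shares are given with some of them.

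Notch3 was more frequent in mural cells than in the neighbours, except that the few E18.5 Cxcl12 cells could not be told apart from them without thinning. It was present in 94.9% of thinned mural cells at E18.5 (88.6% to 98.3%) and 96.5% in the adult (87.9% to 99.6%), where the unthinned shares were 98.1% and 98.8%. The Pecam1 and Kdr cells had it in 0% (up to 1.74%) and 1.96%, and unthinned in 0.538% and 5.05%. These cells were chosen without Rgs5, which leaves out cells holding Rgs5 together with endothelial genes. Their shares therefore do not measure the level of stray Notch3 molecules. The Aspn and Postn cells had it in 9.72% and 12.5%. The adult Cxcl12 cells had it in 39.3% (37.4% to 41.3%), at a level of 62.7 against 1170 in mural cells. The 10 E18.5 Cxcl12 cells that could be thinned had it in 60.0%, with an interval of 26.2% to 87.8%, and unthinned 9 of 11 had it (81.8%, 48.2% to 97.7%), which overlaps the mural share. The unthinned share of adult Cxcl12 cells was 86.7%.

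Gja4 was shared with the Pecam1 and Kdr cells and low in the other gates. At E18.5 it was in 33.3% of thinned mural cells (24.2% to 43.5%), 17.1% of Pecam1 and Kdr cells (12.3% to 22.9%) and 0% of Aspn and Postn cells (up to 0.465%). In the adult these shares were 66.7% (52.9% to 78.6%), 35.1% (32.5% to 37.9%) and 5.88%, with 0.733% in Cxcl12 cells. Unthinned, mural cells had it in 42.3% and 81.5%. Summed levels gave another order, since Gja4 was at 168 in the E18.5 and at 258 in the adult Pecam1 and Kdr cells, above the mural 122 and 230.

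Nrarp and Hey1 were also found in the Pecam1 and Kdr cells. Nrarp was in 39.4% of thinned mural cells and 56.2% of Pecam1 and Kdr cells at E18.5, and in 40.4% and 30.6% in the adult. Hey1 was in 12.1% and 26.7% at E18.5 and in 17.5% and 17.6% in the adult. The Aspn and Postn cells had Nrarp in 0.126% and 2.08% and Hey1 in 2.27% and 3.81%, and the adult Cxcl12 cells had them in 0.244% and 2.93%. In the E18.5 Cxcl12 cells Hey1 was in 2 of 10 thinned cells (20%, 2.52% to 55.6%), at a level of 22.1 against 23.7 in mural cells. Aspn showed the reverse pattern, in 86.9% and 87.7% of mural cells, in 79.5% and 76.1% of Aspn and Postn cells, which were chosen on it, and in 2.86% and 1.39% of Pecam1 and Kdr cells. Mural cells thus carried the Notch targets found in the Pecam1 and Kdr gate together with the Aspn of the Aspn and Postn gate. In the adult the latter gate also held contractile genes, so its Aspn is not a purely stromal value.

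**Figure D3:**
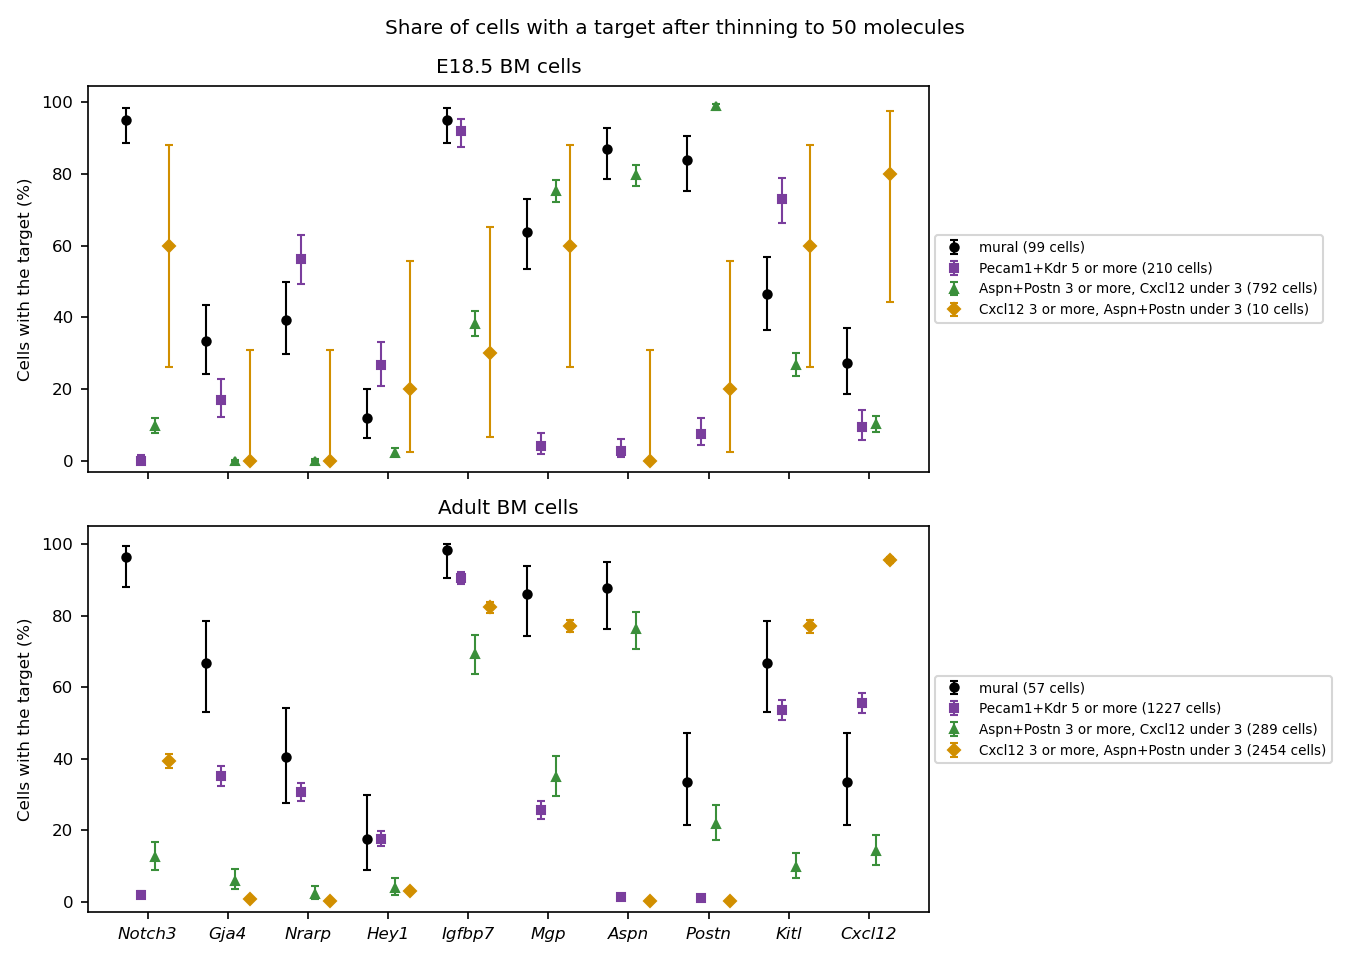
Share of cells with at least 1 molecule of each target after thinning to 50 molecules (y axis, percent), for mural cells and 3 neighbouring gates, at E18.5 (top) and in the adult (bottom). Points are shares, bars exact binomial 95% intervals, and Aspn, Postn and Cxcl12 define 2 of the gates. Notch3 is above 94% in mural cells of both libraries and at most 60.0% in any neighbour.

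Of the niche factors, Cxcl12 was far lower in adult mural cells than in adult comparison cells, while Kitl was not. Cxcl12 was at 80.7 (67.2 to 96.1) in E18.5 mural cells against 44.2 in comparison cells, a ratio of 1.83 that was not called. In adult mural cells it was at 56.9 (45.6 to 70.2) against 1164, a ratio of 0.0489 (0.0392 to 0.0603), 0.0313 with equal weight, 0.274 with RSEC levels and 0.787 with RSEC for cells and levels, which ends the call. The mural levels of the 2 libraries were thus closer to each other than those of their comparison cells. Of the adult comparison cells 2458 of 3779 met the Cxcl12 gate, against 11 of 1820 at E18.5. The adult ratio is therefore set against a group made up largely of Cxcl12 cells. Kitl, the gene of Kit ligand, was at 199 (178 to 223) and 222 (199 to 247), with ratios of 2.84 (2.52 to 3.19) and 2.51 (2.25 to 2.79). The adult ratio of Kitl was 1.23 with equal weight, 0.890 with RSEC for cells and levels and 0.869 among cells under 1000 molecules. Kitl was counted on a pair of amplicons with almost the same totals in mural cells (156 and 155 at E18.5, 168 and 171 in the adult), so 1 transcript may have been counted more than once and its intervals are too narrow.

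Kitl was common but not particular to mural cells. It was in 46.5% of thinned mural cells at E18.5 and 66.7% in the adult (52.9% to 78.6%), in 72.9% and 53.6% of Pecam1 and Kdr cells and in 77.0% of adult Cxcl12 cells. Lepr, the leptin receptor of adult reticular stroma, had 14 molecules in E18.5 mural cells, a ratio of 3.86 (2.04 to 6.77), and 3 in adult ones, a ratio of 0.112 (0.0231 to 0.327), or 0.0250 with equal weight. Ptn (pleiotrophin) was at 74.3 (61.4 to 89.1) in E18.5 mural cells, lower than in comparison cells (0.302, 0.249 to 0.363), and no molecule of it was seen in the 81 adult mural cells. Of the 4 niche genes, 2 were called higher and 1 lower at E18.5, and 1 higher and 2 lower in the adult, beside 17.9% and 36.8% of all targets at E18.5 and 30.1% and 25.2% in the adult. With equal weight none of them was higher in the adult and 2 were lower. The list of reticular genes, which shares Cxcl12, Kitl and Lepr with them, was at 289 against 118 at E18.5 and at 283 against 1283 in the adult. Adipoq was at 0 in the mural cells of both libraries.

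Genes of the elastic vessel wall gave mixed results apart from Mgp. Mgp, matrix Gla protein, an inhibitor of calcification, was at 2049 (1978 to 2121) and 1833 (1766 to 1902), with ratios of 2.73 (2.63 to 2.83) and 2.20 (2.12 to 2.28), and 2.41 with equal weight in the adult. The adult ratio of Mgp was 0.933 with the rule genes in the denominator. Fbn1, the gene of the microfibril protein fibrillin 1, was at 97.3 at E18.5, a ratio of 1.94 (1.64 to 2.29), and at 26.2 in the adult, a ratio of 2.42 (1.73 to 3.30) that was 0.872 with equal weight. Fbln5, the gene of fibulin 5, which organizes elastic fibres, had ratios of 3.21 (2.74 to 3.75) and 0.553 (0.421 to 0.713), the latter 0.421 with equal weight. Vcan, the gene of the proteoglycan versican, was lower at E18.5 (0.486, 0.418 to 0.562) and rested on 6 molecules in the adult. Of these 4 genes, 2 were called higher and 1 lower at E18.5, and 2 higher and none lower in the adult, beside the same 17.9% and 36.8%, and 30.1% and 25.2%, of all targets. With equal weight 1 was higher and 2 were lower in the adult.

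Wnt signals are secreted ligands that bind Frizzled receptors and stabilise β-catenin, and the panel was built around them. Wls, which carries Wnt ligands to the cell surface, had 310 molecules in E18.5 and 88 in adult mural cells. It was at 199 (177 to 222) against 96.7 at E18.5, a ratio of 2.05 (1.82 to 2.30) that was 0.775 with the rule genes in the denominator. In the adult it was at 57.6 (46.2 to 70.9) against 19.8, a ratio of 2.91 (2.33 to 3.59), 2.30 with equal weight and 0.998 with RSEC for cells and levels. Dkk3, a secreted member of the Dickkopf family, was at 204 (182 to 227) in E18.5 mural cells against 49.4, a ratio of 4.12 (3.65 to 4.64). Adult mural cells had a single Dkk3 molecule.

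The ligands themselves were sparse. Of 17 Wnt ligand genes in the panel 8 could be compared at E18.5. Of these, 1 was called higher (Wnt6, from 4 molecules) and 1 lower (Wnt11, 0.491, 0.252 to 0.863), where 17.9% and 36.8% of all targets were. The other 6 ranged from Wnt10b, with no molecule in mural cells, to Wnt5a, at 11.5 (6.83 to 18.2) against 6.54. In the adult 10 could be compared, 2 called higher and 2 lower, where 30.1% and 25.2% of all targets were. With equal weight 1 was higher and 3 were lower. Wnt5b, a ligand of β-catenin-independent signalling, had 19 molecules there and was at 12.4 (7.49 to 19.4) against 5.49, a ratio of 2.26 (1.36 to 3.54) that was 4.59 with equal weight and 0.962 with the rule genes in the denominator. Wnt6 was called on 1 molecule, with an interval of 0.275 to 68.0. Wnt4 (0.141, from 2 molecules) and Wnt11 (0.186, from 1) were called lower.

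Among receptors, Fzd7 was the Frizzled with the most molecules in mural cells of both libraries, 82 and 74. It was at 52.5 (41.8 to 65.2) at E18.5, a ratio of 1.39 (1.10 to 1.73), and at 48.4 (38.0 to 60.8) in the adult, a ratio of 7.04 (5.51 to 8.86), or 5.40 with equal weight and 0.882 with RSEC for cells and levels. At E18.5 Fzd5 (25.6, ratio 2.41), Fzd3 (12.8, ratio 3.92) and Fzd4 (4 molecules, ratio 3.09 with an interval of 0.799 to 8.62) were called higher, and Fzd2 was at 21.8 with a ratio of 1.99. Fzd6 had no molecule in E18.5 mural cells and was at least 2.74-fold lower. In the adult Fzd4 (9 molecules), Fzd6 (5 molecules) and Fzd7 were called higher and Fzd5 lower, at 4.58 against 11.3. Fzd2 and Fzd3 were down to 1 molecule each. In each library 3 of 8 receptors were thus called higher and 1 lower. Of all targets 17.9% were called higher and 36.8% lower at E18.5, and 30.1% and 25.2% in the adult. Without the single deep cell 5 of 8 receptors were called higher and 1 lower, where 38.8% and 31.1% of all targets were.

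The other Wnt regulators gave no single direction. Of 6 secreted modulators and their receptors compared at E18.5, 2 were called higher (Wls and Dkk3) and 3 lower, namely Dkk2 (no molecule, at least 2.89-fold lower), Lgr5 (1 molecule) and Rspo2, an R-spondin that amplifies Wnt signals (0.373, 0.160 to 0.741). Of 9 compared in the adult, Wls and Lgr4 were called higher and Rspo2 and Dkk3 lower. Lgr4, a receptor of R-spondins, had an adult ratio of 2.07 (1.22 to 3.28) that was 1.20 with equal weight and 0.360 after thinning. Of 7 intracellular components 1 was called higher and 1 lower at E18.5: Cdk14, a kinase that acts on the Wnt receptor complex, with a ratio of 5.43 (3.62 to 7.92), and Lef1, a transcription factor of the pathway (0.0959, 0.0352 to 0.209). In the adult 3 of 7 were called higher and none lower, 1 and none with equal weight, and 6 and none without the single deep cell. Of all targets 17.9% were called higher and 36.8% lower at E18.5, and 30.1% and 25.2% in the adult. The adult shares were 19.4% and 36.9% with equal weight, and 38.8% and 31.1% without the single deep cell.

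**Figure D4:**
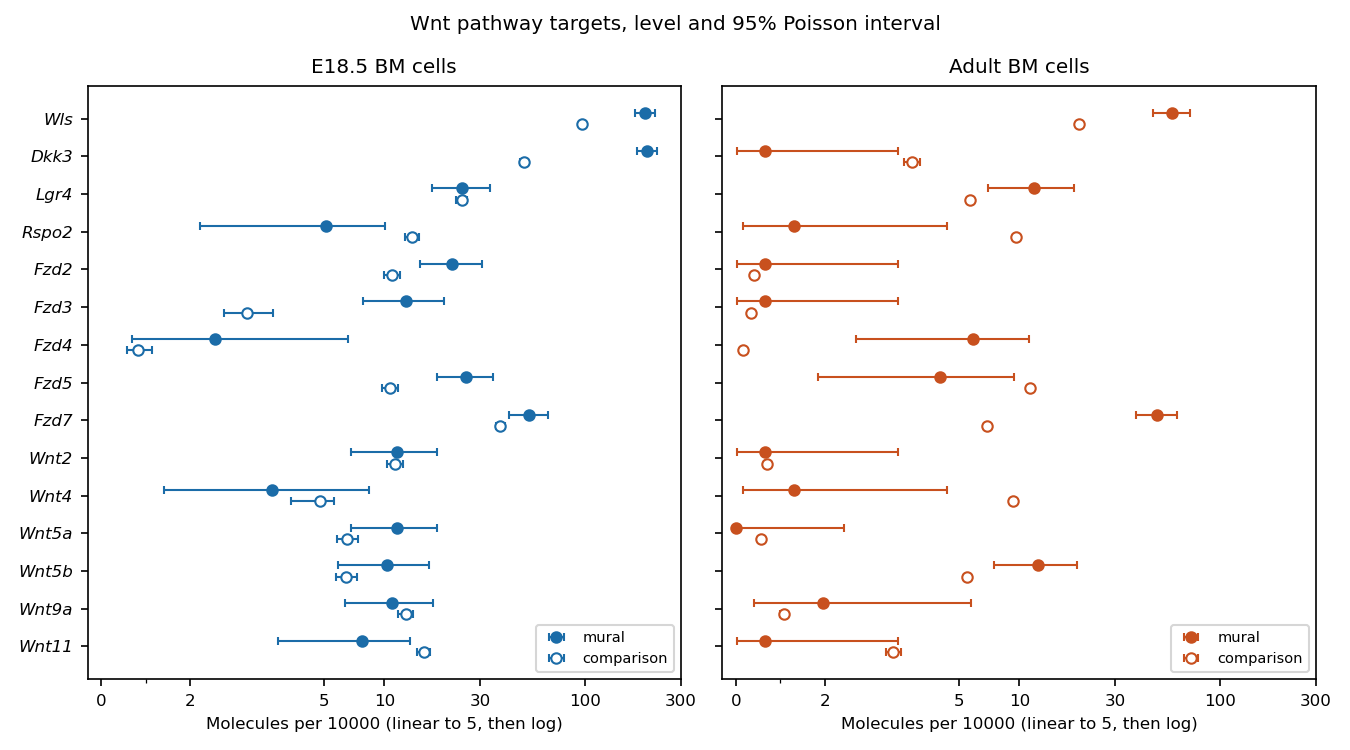
Level of Wnt pathway targets in mural (filled) and comparison cells (open) at E18.5 (left) and in the adult (right), in molecules per 10000 on an axis that is linear up to 5 and logarithmic beyond. Bars are exact Poisson 95% intervals. Wls and Fzd7 are measured well in both, while Dkk3 is at 204 in E18.5 mural cells and at 0.654 in adult ones.

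Between the mural cells of the 2 libraries, 60 targets could be compared. Of these, 32 were at least 2-fold higher at E18.5 (53.3%) and 14 at least 2-fold lower (23.3%), and the median log2 ratio was 1.08, so levels as a whole were shifted towards E18.5 on this scale. With equal weight 28 were higher (46.7%) and 13 lower (21.7%). Without the single deep adult cell 27 of 57 were higher (47.4%) and 12 lower (21.1%), with a median of 0.85. The Notch genes were close to equal and thus below that shift. The ratio of E18.5 to adult was 1.11 (1.04 to 1.18) for Notch3, 1.09 (0.848 to 1.40) for Nrarp and 1.34 (0.795 to 2.29) for Hey1. It was 0.984 (0.920 to 1.05) for Igfbp7, 1.12 (1.06 to 1.18) for Mgp and 0.532 (0.444 to 0.637) for Gja4. With equal weight these 6 were between 0.41 for Gja4 and 1.05 for Hey1. Without the single deep cell they were between 0.371 for Gja4 and 0.972 for Hey1, with 0.744 for Notch3 and 0.663 for Igfbp7, so the call for Gja4 was gained and all 6 were on the adult side of 1.

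Cell cycle genes were far higher at E18.5, all 5 of them, where 53.3% of all targets were at least 2-fold higher. Mki67, a marker of dividing cells, was at 61.5 against 1.96, a ratio of 31.3 (10.4 to 155). Top2a, the topoisomerase of dividing cells, was at 73.6 against 1.31 and Cdk1, the kinase of mitotic entry, at 82.6 against 0.654, the adult values resting on 2 molecules and 1. Ccnd1 (cyclin D1) and Myc had ratios of 6.97 (4.80 to 10.4) and 3.84 (2.69 to 5.61). At E18.5, 51 of 104 mural cells (49.0%, 39.1% to 59.0%) had a molecule of Mki67, Top2a or Cdk1. The share was 66.0% in comparison cells and 60.8% in Pecam1 and Kdr cells, but 51.6% (48.1% to 55.1%) in Aspn and Postn cells. In the adult it was 5 of 81 mural cells (6.17%, 2.03% to 13.8%), against 11.6%, 13.7% and 7.80% (5.01% to 11.5%). The mural shares were thus close to those of the Aspn and Postn cells, but these were deeper and depth was not equalised here. Mural and comparison cells had medians of 138 and 147 molecules outside the rule genes at E18.5, and of 84 and 414 in the adult. For Aspn and Postn cells the medians were 229.5 and 295. The summed level of the 5 cell cycle genes was higher in mural than in Aspn and Postn cells. It was 462 against 309 at E18.5 and 50.4 against 35.1 in the adult. Within E18.5, 2 of 5 cell cycle genes were called lower in mural than in comparison cells and none higher. Of all targets 36.8% were lower and 17.9% higher there. With equal weight 4 of 5 were lower at E18.5, where 43.2% of all targets were. Within the adult 3 were lower and Ccnd1 higher, where 25.2% and 30.1% of all targets were. Without the single deep cell 2 were higher, where 38.8% of all targets were.

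Matrix and secreted factors made up most of the other E18.5 differences. Postn was at 1846 (1779 to 1914) against 96.9, a ratio of 19.1 (16.1 to 22.6), and was found in 94 of 104 and 34 of 81 mural cells. Ccn3, a matricellular growth regulator, had a ratio of 28.2 (17.6 to 47.9), or 9.59 with equal weight, and Vcan one of 30.01 (13.5 to 82.8). Aspn was at 2.21 (1.98 to 2.47), or 1.39 with equal weight and 1.48 without the single deep adult cell. Ptn was at least 37.8-fold higher and Dkk3 had a ratio of 311 (55.5 to 12329). Fbn1 had a ratio of 3.72 (2.61 to 5.41). Fbln5 had one of 3.02 (2.24 to 4.12) that was 0.954 with equal weight. All 3 fibroblast genes and 3 of 4 elastic matrix genes were at least 2-fold higher at E18.5, where 53.3% of all targets were, and 2 of 3 and 2 of 4 with equal weight.

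Of the Wnt pathway, Wls had a ratio of 3.45 (2.71 to 4.42), or 1.91 with equal weight, and Fzd7 one of 1.08 (0.782 to 1.51). Fzd2 (33.3, 5.58 to 1352), Fzd3 (19.6, 3.13 to 811) and Fzd5 (5.59, 2.48 to 14.8) were higher at E18.5, but Fzd5 was at 0.934 with RSEC levels. Of 2 ligands compared, Wnt9a was higher (5.55, 1.60 to 29.5) and Wnt5b was at 0.824 (0.396 to 1.69). All 3 modulators compared and 5 of 6 intracellular components were higher at E18.5, where 53.3% of all targets were, and 2 of 3 and 4 of 6 without the single deep adult cell.

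Several of the targets higher in the adult rested on the single deep cell. Bglap, Bglap2 and Bglap3 had 2 molecules each at E18.5 and between 1309 and 2282 in the adult. That cell held 96.3% of the Bglap, 96.8% of the Bglap2 and 78.3% of the Bglap3 molecules, and 67 of 81 cells had no Bglap. Without it the ratios were 0.0268, 0.0286 and 0.00265, each resting on the 2 molecules at E18.5. Car3, the gene of carbonic anhydrase 3, had none and 197 molecules, but 194 of these lay in that cell, and without it too few were left to compare. S100a4, a calcium-binding protein of motile cells, was at 19.9 (13.5 to 28.2) against 344 (315 to 375), a ratio of 0.0577 (0.0388 to 0.0829), but 0.752 with RSEC levels. Cxcl12 had a ratio of 1.42 (1.07 to 1.88) here, but 0.235 with RSEC levels.

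**Figure D5:**
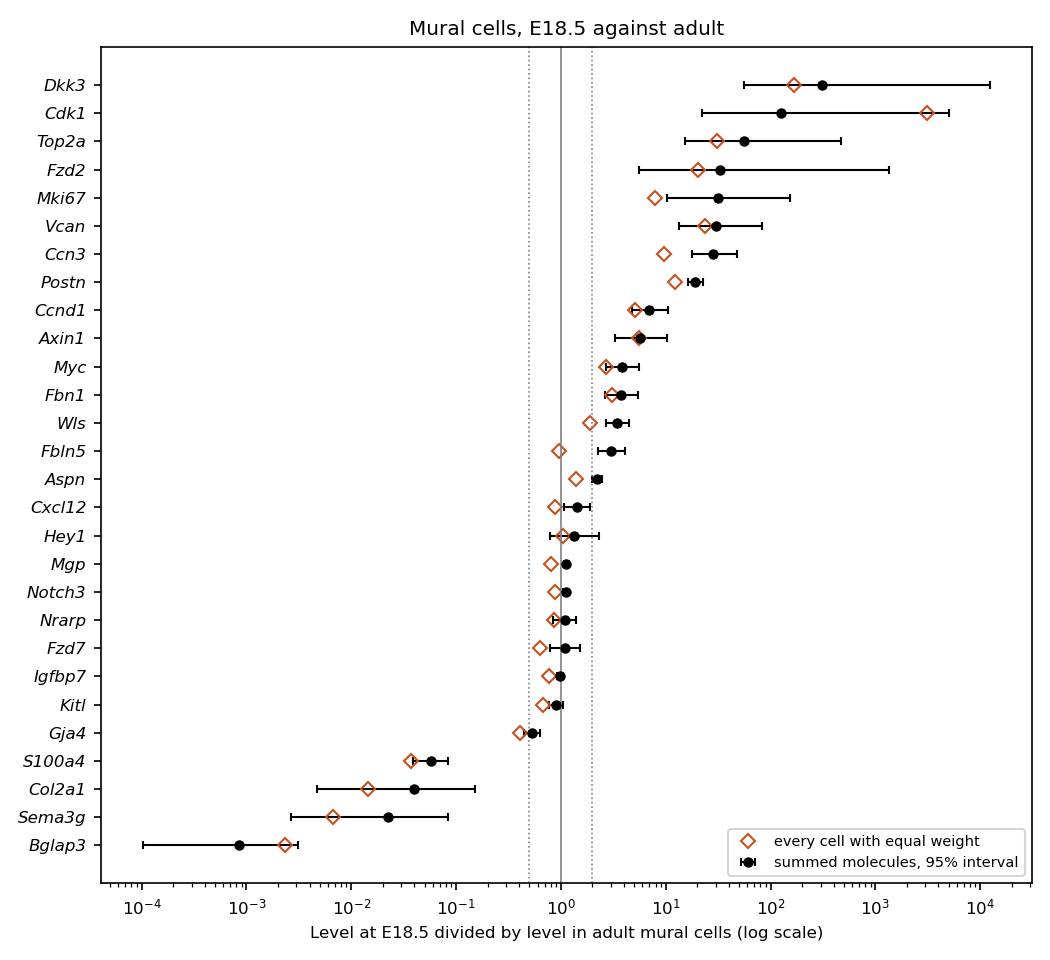
Level in E18.5 mural cells divided by that in adult mural cells (x axis, log scale) for the best-measured targets of each list and both ends of the order. Black points are ratios of summed molecules with exact 95% intervals, open diamonds give every cell equal weight, and dotted lines mark 2-fold. Notch3, Nrarp, Hey1, Igfbp7 and Mgp lie near 1, cell cycle and matrix genes to the right, S100a4 and Bglap3 to the left.

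Along the range from contractile to Rgs5-rich cells, several genes differed in both libraries. These are descriptions, since the cells were divided by the genes of the rule, and intervals are again of counting error. At E18.5 the 21 cells with more Rgs5 than Acta2 and Tagln together had a Mgp level of 3293 against 1700 in the other 83, or 2604 against 1287 with equal weight. In the adult the 36 such cells had 2212 against 644 in the other 45, or 3413 against 759 with equal weight. Mgp was thus higher at the Rgs5-rich end in both. The single deep adult cell was 1 of those 36. Without it the adult Rgs5-rich levels were 3897 for Mgp, 218 for Gja4, 74.7 for Nrarp, 1366 for Igfbp7, 209 for Postn and 1512 for Notch3, and none of the orders given here for these genes turned.

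Gja4 and Nrarp had higher levels at the other, contractile end. Gja4 was at 79.0 against 134 at E18.5. Of its 191 molecules there, contractile cells with 20, 19 and 12 held many, and these cells had 146, 197 and 36 Rgs5 molecules. Contractile thus means the balance of the rule genes, not few Rgs5 molecules. In the adult Gja4 was at 135 against 528, or 247 against 479 with equal weight. The shares of adult cells with it were nevertheless 80.6% and 82.2%. Nrarp was at 40.9 against 102 at E18.5 and at 44.0 against 200.3 in the adult, or 60.6 against 196 with equal weight. Igfbp7 had the same order, at 798 against 1177 and 778 against 2160, and 1223 against 2093 with equal weight in the adult.

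Postn changed place between the libraries. At E18.5 its level was 1331 in the Rgs5-rich and 1990 in the contractile cells. In the adult it was 119 and 27.1, or 270.3 and 27.3 with equal weight, and was found in 80.6% and 11.1% of cells. Ccn3 was found in 19.0% of Rgs5-rich and 56.6% of contractile cells at E18.5, at levels of 79.0 and 403, and in 13.9% and 11.1% in the adult. Notch3 differed little in reach, being present in at least 95.2% of cells at either end of both libraries. Its adult level was 859 in Rgs5-rich and 2147 in contractile cells, or 1417 and 2124 with equal weight.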

How the data were processed

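Targeted single-cell RNA libraries of marrow were deposited, 1 each for Adult BM cells, E18.5 BM cells and E18.5 EC. The authors deposited molecule counts per cell and amplicon from BD's Rhapsody pipeline for targeted panels (release 1.8 per the file headers), with raw, RSEC-adjusted and DBEC-adjusted columns, and mm10 per the labels. RSEC merges molecular identifiers that differ by sequencing error, and DBEC then removes those with few reads, target by target and library by library, so that low targets can be lost in one library and not in the other. DBEC counts were summed per cell and symbol. Amplicon sequences were not used here. Cells under 20 molecules were to be left out and there were none. Groups came from sample titles. The members and gene lists were chosen with earlier results of these data known. Totals were 1837897 molecules at E18.5 and 6304495 in the adult, with medians of 96 and 242 per cell over all cells.

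Levels, exact Poisson and Clopper-Pearson intervals and exact conditional binomial intervals of ratios came from scipy 1.17.1 (pandas 2.3.3, numpy 2.4.6, Python 3.11.15; plots by matplotlib 3.10.9), and the code was checked on simulated data. Counts of 0 were set at a floor of 3 for calls. Thinning used seed 1. No doublet caller was run and no test was made, since cells are not replicates. Targets named were those of the mural, Notch, Wnt, niche and elastic matrix lists with at least 20 molecules, plus the 10 largest and 10 smallest ratios whose interval excluded 1. A target withheld from the text is not reported here. The values of Ccnd1, Myc, Cdk14 and Lef1 and those along the Rgs5 range were added after the values were seen. Alternatives were RSEC for levels or for cells and levels, all molecules as denominator, equal weight, thinning, a stricter gate (at least 5 of Rgs5 and of Acta2 plus Tagln, no Pecam1 or Kdr), at least 50 molecules per cell, comparison cells without 10 or more Col2a1 and Acan molecules, and no filter on low targets. After seeing the data, cells under 1000 molecules only, members without Pecam1 and Kdr only, and adult members without the cell of most molecules were added.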

Additional observations from a re-analysis of the deposited data

Results flagged for a closer look

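For 5 targets the ratio of mural to comparison cells was at least 2-fold in opposite directions in the 2 libraries. Each ratio comes from 1 library, so the difference between libraries was not tested. Dkk3 had a ratio of 4.12 at E18.5, from 318 molecules in mural cells, and of 0.166 in the adult, from 1. Fzd5 had 2.41 at E18.5 and 0.405 in the adult, the latter from 7 molecules and 1.07 with RSEC levels. Fzd6 had no molecule in E18.5 mural cells (0.364 with the floor of 3 counts) and a ratio of 7.22 in the adult, from 5. Lepr had 3.86 and 0.112, from 14 and 3 molecules. S100a4 had 0.138 and 5.07, from 31 and 526 molecules, and 0.926 and 3.04 with RSEC levels.

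The E18.5 EC library was sorted for endothelial cells and enters no comparison, but 8 of its 4043 cells met the mural rule. They held between 23 and 178 Rgs5 molecules, all 8 had Notch3 (9 to 44 molecules), Aspn and Postn, and 5 had Gja4. They had 1 Pecam1 molecule and no Kdr molecule in all.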

How the results depend on the processing

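No paired analysis was possible because each group was 1 library. Leaving out a replicate was not possible for the same reason. Of 1252 alternative ratios of named targets, 784 stayed within the counting interval of the reported ratio, 425 moved beyond it and, in 43, a ratio of at least 2-fold crossed 1. Of 74 alternative counts, 55 stayed within 1.5 times the reported value. Except where said, the cause was not tested. Many ratios rest on under 20 molecules in mural cells and have wide intervals.

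With RSEC for cells and levels there were 44 mural cells at E18.5 and 598 in the adult, where the adult counts of called targets were 9 higher and 2 lower and those between stages 49 higher and 31 lower. With RSEC for levels only, 11 adult targets were lower and 29 were lower between stages. The stricter gate left 42 adult cells, and 6 targets lower between stages. The denominator of all molecules gave 5 higher and 62 lower at E18.5 and 19 and 43 in the adult. Equal weight and thinning each gave 20 higher in the adult, and thinning 15 higher and 9 lower between stages. Members without Pecam1 and Kdr gave 7 lower between stages.

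Ratios that crossed 1 with RSEC for cells and levels were, in the adult, Notch3 0.976, Nrarp 0.653, Fzd4 0.896, Fzd7 0.882, Rspo2 1.42, Lgr4 0.842, Wls 0.998, Kitl 0.890, Mmp13 1.23, Col2a1 1.15, Col10a1 1.04, Acan 1.68, Sox9 1.16, Cilp 1.23, Epyc 1.10, Prg4 2.69, Mecom 0.960, Aspn 0.551, Vwf 0.444 and Igfbp7 0.896, and at E18.5 Mmp9 1.12. With RSEC levels only it was adult Fzd5, at 1.07. With the denominator of all molecules these were Fzd5 0.911 and Wls 0.775 at E18.5, and Wnt5b 0.962, Lgr4 0.879 and Mgp 0.933 in the adult. Thinning gave 0.360 for adult Lgr4 and 0.879 for Fbn1, and equal weight 0.872 for adult Fbn1 and 1.51 for Col22a1 between stages.

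Without comparison cells rich in Col2a1 and Acan the adult ratios that crossed were Kitl 0.975, Fbn1 0.953, Col2a1 2.50, Col10a1 1.05 and Acan 3.42. Among cells under 1000 molecules they were Kitl 0.869, Fbn1 0.989, Col2a1 1.09, Col10a1 1.20 and Acan 1.81, and Col22a1 1.03 between stages. Without the single deep adult mural cell Col22a1 was at 1.31 between stages.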

Other observations

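The same cells gave a few values outside the comparisons above. In E18.5 BM cells 24 cells met the mural limits except that they held Ptprc, and in Adult BM cells 3 did. Cells with at least 3 Rgs5 molecules but fewer than 3 of Acta2 and Tagln, without Ptprc and under the limit on Pecam1 and Kdr, numbered 15 at E18.5 and 245 in the adult. The reverse, cells with no Rgs5 molecule but at least 3 of Acta2 and Tagln, numbered 62 and 114 and are among the comparison cells.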
